A study of Mus musculus with 6 samples.

Results

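The transcripts of 10 steroid receptors and steroid-converting enzymes were followed in the mouse prostate, by lobe and by genotype. The members are named genes: the estrogen receptors ESR1 and ESR2, the progesterone receptor PGR, the glucocorticoid receptor NR3C1, the mineralocorticoid receptor NR3C2, the 5-alpha reductases SRD5A1, SRD5A2 and SRD5A3, and the 11-beta hydroxysteroid dehydrogenases HSD11B1 and HSD11B2. They are 10 of the 24908 genes measured. Bulk RNA-seq was available for 6 libraries, taken from the anterior (AP), dorsolateral (DLP) and ventral (VP) lobes of 1 wild-type (WT) and 1 MYC male mouse. Both were FVB littermates aged 12 weeks, fed the same purified diet and left otherwise untreated as far as the labels say. The MYC mouse was heterozygous for the Hi-MYC allele, a human c-MYC transgene that the androgen-dependent ARR2Pb promoter drives in the prostate epithelium. RNA came from an enzymatically dissociated cell suspension of each lobe, so epithelium, stroma and immune cells were measured together. With 1 library per group, the libraries of 1 genotype are 3 lobes of 1 animal and not replicates, so that no test between genotypes was possible. An effect of the transgene cannot be told apart from any other difference between the 2 animals.

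Steroid receptors are ligand-activated transcription factors that bind DNA as dimers or with partner factors, and each of those studied here is bound in turn by chaperones, coactivators and corepressors. What a cell's receptors see depends on local conversion of steroids. The reductases SRD5A1 and SRD5A2 turn testosterone into dihydrotestosterone, the more potent androgen, and SRD5A2 is best known as the reductase of prostate stroma. HSD11B1 mostly regenerates active glucocorticoid inside cells with NADPH made by H6PD, whereas HSD11B2 inactivates it and thereby shields the mineralocorticoid receptor. In the rodent prostate ESR1 is known mainly from stroma and ESR2 from epithelium.

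Levels are given as FPKM, a read density scaled to transcript length and library size, so they may be set side by side between genes. Between libraries the scale is only approximate, since FPKM summed to 374085 in WT AP and 483143 in MYC VP. Differences near 2-fold can therefore move with the library scaling. The estimated depth lay between 25.5 M reads (WT AP) and 50.2 M (MYC AP). Bracketed ranges after a level or a ratio of FPKM are 95% intervals computed from estimated reads, and they cover counting error only. A gene was compared when its mean over the 6 libraries was at least 1 FPKM, which 12361 genes and 8 of the 10 members met; PGR and HSD11B2 did not. It was counted as 2-fold apart when the difference of log2(FPKM + 1), here called the log2 ratio, was at least 1 in size. The added 1 pulls low genes toward no difference, so the ratio of FPKM can exceed 2 while the log2 ratio stays under 1.

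**Figure D1:**
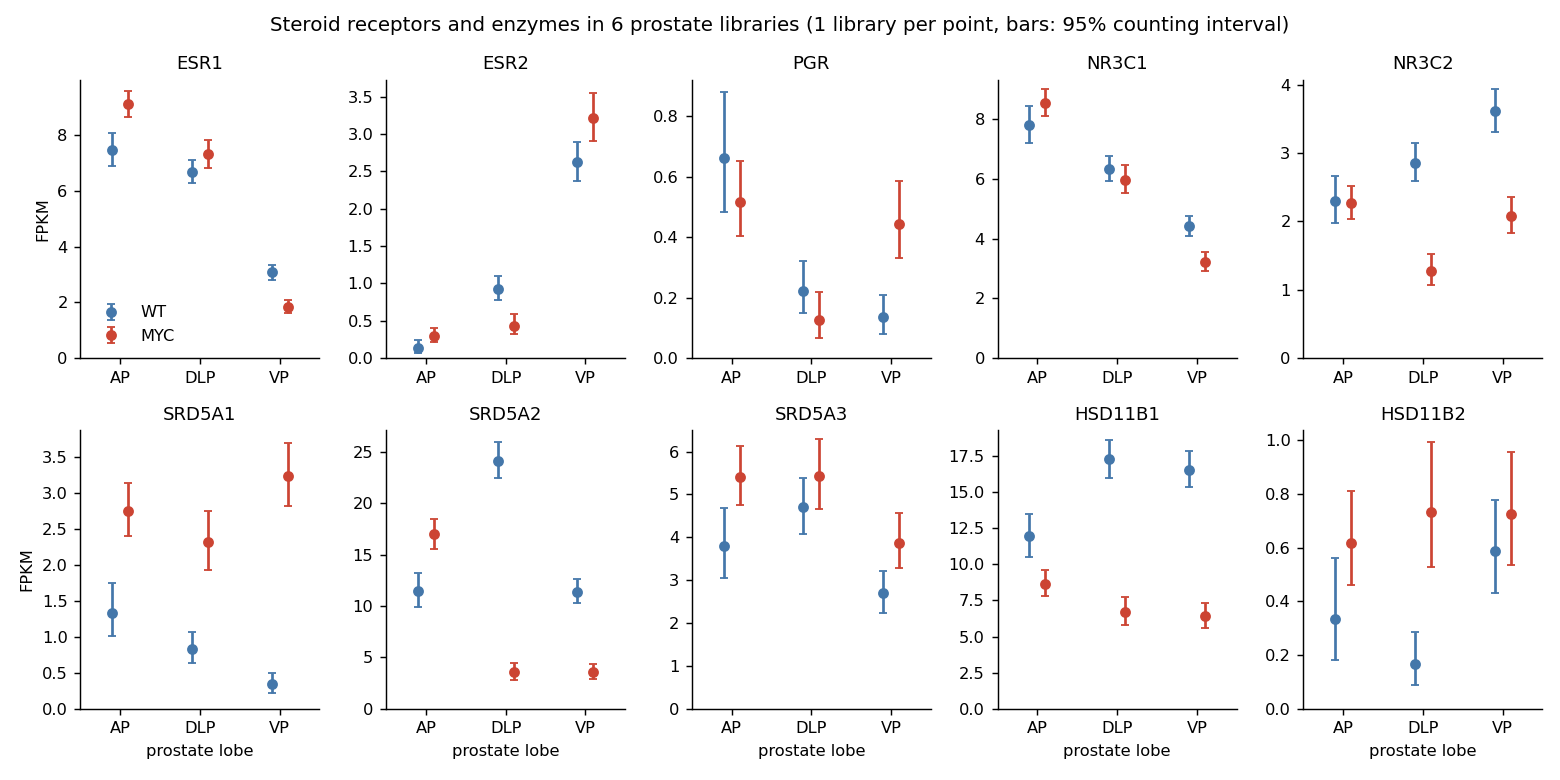
Level of each member in FPKM (y axis, linear from 0, own scale per gene) in the AP, DLP and VP libraries of the WT (blue) and the MYC mouse (red), with 95% counting intervals as bars. SRD5A1 is higher in all 3 MYC libraries than in any WT library and HSD11B1 is lower, whereas ESR1, ESR2 and NR3C1 follow the lobe in both genotypes.

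The first question was which members differed between MYC and WT within a lobe. In the AP 0 of the 8 members compared were 2-fold apart, where 2.05% of all genes compared were 2-fold higher in MYC and 0.599% lower. In the DLP SRD5A2 and HSD11B1 were lower in MYC, 2 of 8 members against 3.39% of all genes, and 0 were higher, against 6.46%. In the VP the same pair was lower, 2 of 8 against 5.95%, and SRD5A1 was higher, 1 of 8 against 6.88%. All of these members are enzymes, and none of the 4 receptors compared was 2-fold apart between genotypes in any lobe. With a pseudocount of 0.1 in place of 1 the receptor NR3C2 passed 2-fold in the DLP, at -1.10, as did SRD5A1, at 1.37. The median log2 ratio of the 8 members was 0.22 in the AP, -0.25 in the DLP and -0.44 in the VP, beside 0.13, 0.03 and 0.04 over all genes compared.

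**Figure D2:**
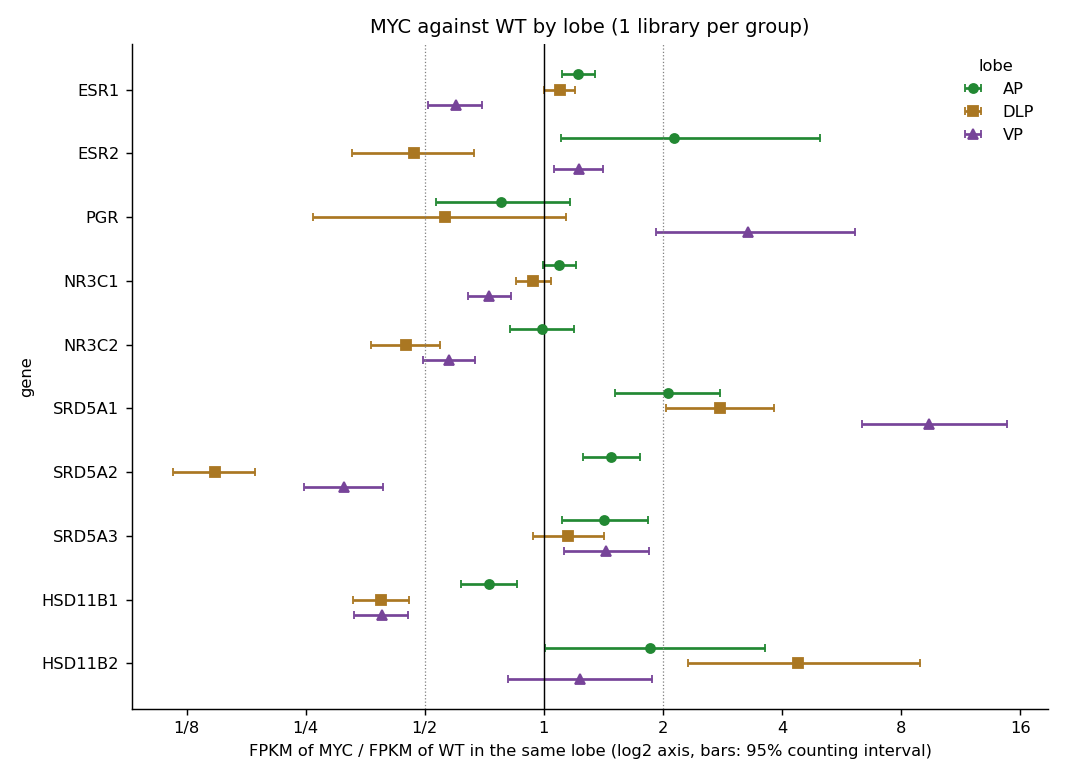
Ratio of FPKM in MYC to WT for each member (x axis, log2 scale) in the AP (circles), DLP (squares) and VP (triangles), with 95% counting intervals and dotted lines at 2-fold in either direction. SRD5A2 and HSD11B1 lie past 2-fold lower in DLP and VP and SRD5A1 past 2-fold higher in all 3 lobes; the points past 2-fold for SRD5A1 (AP and DLP), NR3C2 (DLP), ESR2 (AP and DLP), PGR (VP) and HSD11B2 (DLP) are not 2-fold apart in log2(FPKM + 1).

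Markers of stroma, basal epithelium, immune cells and cycling cells moved with genotype. Of the 10 fibroblast markers 6 were 2-fold lower in MYC VP and 0 higher, and they summed to 216 FPKM in MYC VP against 709 in its WT counterpart. In the DLP 3 were lower and 2 higher, with sums of 1442 and 788 FPKM. DCN carried most of that sum, at 1155 FPKM in WT and 454 in MYC, and PDGFRA was at 26.6 and 7.76 FPKM, whereas COL1A1 was higher in MYC DLP (44.8 against 10.6 FPKM), as was COL3A1 (94.0 against 22.3 FPKM). Of 10 smooth muscle markers 4 were 2-fold lower in each of these lobes, and all 10 lay below 0 on the log2 scale in both. In the AP the stroma markers went the other way, with 3 of 10 fibroblast markers 2-fold higher in MYC. Of 10 hematopoietic markers 10 were 2-fold higher in MYC DLP and 8 in MYC VP, with sums of 318 against 1213 FPKM and 149 against 429 FPKM. Of 7 basal markers 2 were 2-fold lower and 1 higher in MYC AP, where KRT14 was at 333 against 760 FPKM, KRT17 at 322 against 875 FPKM and TRP63 at 19.2 against 5.79 FPKM. In MYC DLP 2 were higher (KRT5 and TRP63), and in MYC VP TRP63 was lower and all 7 lay below 0 on the log2 scale. None of the 30 stromal and hematopoietic markers was at 0 in any library. Of 8 markers of cycling cells 8 were 2-fold higher in MYC DLP and in MYC VP and 3 in MYC AP, with sums of 3.94 against 59.4 FPKM in the DLP and 3.08 against 60.1 FPKM in the VP. The MYC AP library also held seminal vesicle transcripts, which the labels do not mention, with SVS4 at 293 FPKM and SVS5 at 212 FPKM, and MYC DLP held them at 4.68 and 2.62 FPKM, while both were listed at 0 in the 3 WT libraries. In bulk RNA fewer cells of a type and less RNA per cell cannot be told apart, and the part of composition in the results that follow was not tested beyond the ratios to markers given with them.

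ESR1 (chr10:4611989-5005633, GRCm38.p6), the receptor that carries most stromal estrogen responses, was at 7.47 FPKM in WT AP, 6.69 in WT DLP and 3.08 in WT VP. In the MYC mouse it was at 9.13, 7.33 and 1.84 FPKM in the same order. The VP was lowest in both animals, and WT AP, MYC DLP and WT DLP had overlapping counting intervals. In WT the VP was 2.43-fold below the AP [2.16 to 2.74]. In MYC it was 4.96-fold below the AP [4.34 to 5.70] and 3.98-fold below the DLP [3.46 to 4.62]. MYC and WT differed least in the DLP, where the ratio of 1.10 had an interval that included 1, and in the VP ESR1 was 1.67-fold lower in MYC [1.43 to 1.96].

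ESR2 (chr12:76120419-76177259) had the opposite order of lobes. It was at 2.62 FPKM in WT VP, 0.929 in WT DLP and 0.139 in WT AP, the last from an estimated 10 reads. In the MYC mouse it was at 3.22 FPKM in VP, 0.435 in DLP and 0.296 in AP. The VP stood 18.9-fold above the AP in WT [10.7 to 41.6] and 10.9-fold in MYC [7.95 to 15.2], and 7.39-fold above the DLP in MYC [5.40 to 10.3]. By FPKM it was 2.13-fold higher in MYC in the AP [1.11 to 4.98], 2.13-fold lower in the DLP [1.51 to 3.06] and 1.23-fold higher in the VP [1.06 to 1.41], with log2 ratios of 0.19, -0.43 and 0.22. MYC VP was the highest library, and its interval barely cleared that of WT VP.

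The balance of the estrogen receptors differed by lobe. ESR2 reached 0.0186 of the ESR1 level in WT AP, 0.139 in WT DLP and 0.853 in WT VP. In MYC the values were 0.0324, 0.0594 and 1.75, so that MYC VP was the only library with more ESR2 than ESR1. Between genotypes the ratio was 2.05-fold higher in MYC in the VP [1.66 to 2.54] and 2.34-fold lower in the DLP [1.63 to 3.39]. These ratios of paired members, and those given for other pairs, were chosen after their values were seen.

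PGR (chr9:8898900-8968611), an estrogen target in many tissues, was low throughout. It was at 0.661, 0.222 and 0.135 FPKM in WT AP, DLP and VP, and at 0.516, 0.125 and 0.444 FPKM in MYC. The estimated reads behind these values ran from 12 to 71. Only the VP showed a genotype ratio whose counting interval left out 1, 3.28-fold higher in MYC [1.92 to 6.11], at a level that did not enter the comparison.

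**Figure D3:**
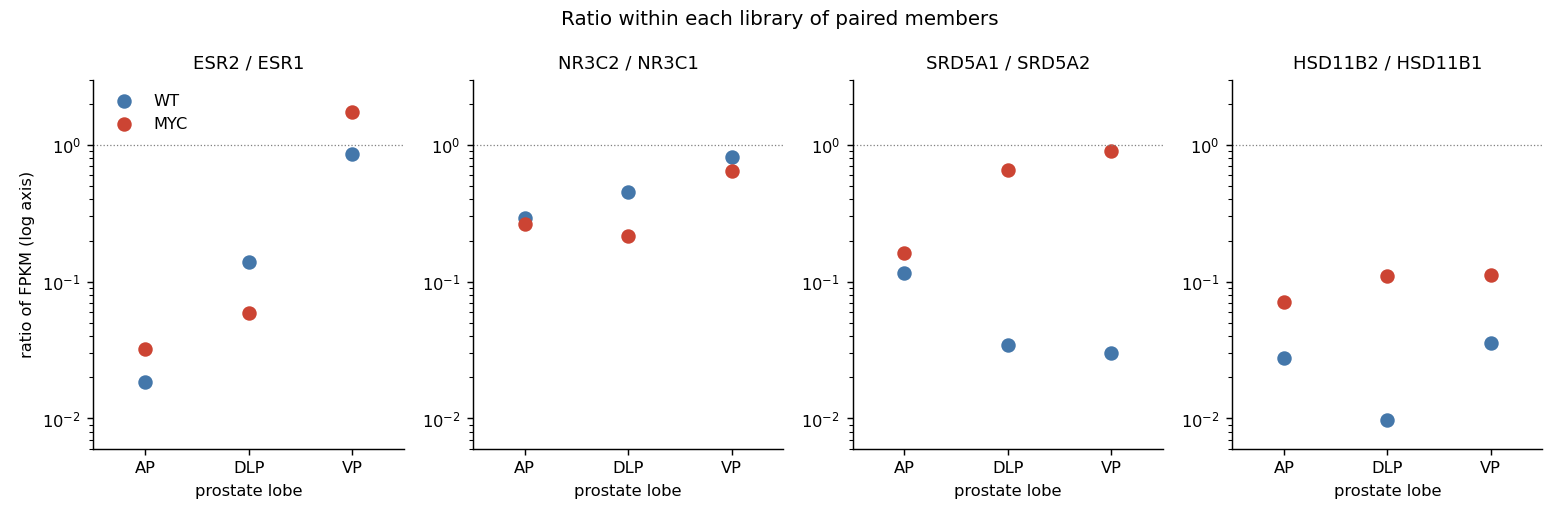
Ratio of the FPKM of paired members within each library (y axis, log scale) by lobe, for WT (blue) and MYC (red), with the dotted line at equal levels. ESR2 passes ESR1 only in MYC VP, and SRD5A1 comes close to SRD5A2 only in MYC DLP and MYC VP, at 0.655 and 0.906.

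NR3C1 (the glucocorticoid receptor, on chromosome 18) and ESR1 had the highest values among the receptors, 1 or the other leading in every library, though by less than the counting error in some. The VP was the exception for ESR1, which NR3C2 exceeded in WT VP and both NR3C2 and ESR2 exceeded in MYC VP, where ESR2 was level with NR3C1. NR3C1 was at 7.81, 6.35 and 4.42 FPKM in AP, DLP and VP of WT and at 8.55, 5.97 and 3.22 FPKM in MYC, the same order of lobes in both animals. The counting intervals of WT and MYC overlapped in AP and in DLP. In the VP it was 1.37-fold lower in MYC [1.21 to 1.55]. Across lobes of the MYC mouse the VP lay 2.65-fold below the AP [2.37 to 2.97], a log2 ratio of -1.18.

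NR3C2 (chr8:76898083-77245012), which binds aldosterone and glucocorticoids alike, was not 2-fold apart in any comparison. It was at 2.30, 2.86 and 3.61 FPKM in WT AP, DLP and VP. The MYC libraries were at 2.27, 1.28 and 2.08 FPKM, with DLP the lowest library. The AP libraries of both animals were alike within counting error, at a ratio of 0.988 [0.820 to 1.19]. In MYC it was 2.23-fold lower in the DLP [1.83 to 2.73] and 1.74-fold lower in the VP [1.49 to 2.02], with log2 ratios of -0.76 and -0.58. Set against NR3C1, its level was 0.294, 0.450 and 0.817 of it in WT AP, DLP and VP and 0.265, 0.214 and 0.646 in MYC.

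Members 2-fold apart between lobes of 1 animal were counted next. In WT they were 1 of 8 between DLP and AP (SRD5A2, where 5.16% of all genes were 2-fold apart), 2 of 8 between VP and AP (ESR1 and ESR2, 18.2%) and 1 of 8 between VP and DLP (SRD5A2, 8.92%). In MYC they were 1 of 8 between DLP and AP (SRD5A2, 8.03%), 4 of 8 between VP and AP (ESR1, ESR2, NR3C1 and SRD5A2, 25.1%) and 2 of 8 between VP and DLP (ESR1 and ESR2, 17.6%). Comparisons that share a library are not independent of each other. Lobes were also tested over both animals, in a limma fit with lobe and animal as terms that was chosen after seeing the data and has 2 residual degrees of freedom. A lobe difference there is the mean over 1 WT and 1 MYC mouse. Its error combines how far the animals differ in the lobe pattern of that gene with a variance that limma estimates over all genes. It is thus not a measure of the spread between these animals alone. Between VP and AP 3 of 8 members differed at an adjusted p under 0.05 over all genes, against 16.6% of all genes: ESR1 was lower in the VP by a log2 ratio of -1.44 ± 0.24 (SE, adjusted p = 0.0304), NR3C1 lower by -0.94 ± 0.19 (adjusted p = 0.0396) and ESR2 higher by 1.69 ± 0.27 (adjusted p = 0.0279), each in the same direction in both animals. Between DLP and AP limma called 0 of 8, where 0.0485% of all genes were called, and 0 had an unadjusted p under 0.05. Between VP and DLP it called 0 of 8, where 0.89% of all genes were called, and 4 had an unadjusted p under 0.05. SRD5A2, whose lobe order differed between the animals, had the widest errors, at 0.71 on the log2 scale. The luminal keratin KRT8 was at 1292 FPKM in WT VP against 400 in WT AP, and the 10 fibroblast markers summed to 709 against 1321 FPKM there and to 216 against 1529 FPKM in MYC. SRD5A2 between WT DLP and WT AP came under 2-fold with other library scalings, at log2 ratios of 0.81 and 0.88 beside 1.01, and between WT VP and WT DLP at -0.82 and -0.95 beside -1.02. Relative to the 20 fibroblast and smooth muscle markers, the log2 ratio of VP to AP in MYC turned from -1.83 to 0.21 for ESR1, from -1.18 to 0.87 for NR3C1 and from -1.98 to 0.071 for SRD5A2, while that of ESR2 went from 1.70 to 3.75. The other differences of ESR1 came under 2-fold on that denominator, at -0.71 between VP and AP in WT and -0.26 between VP and DLP in MYC, and those of ESR2 stayed above it. For SRD5A2 the WT differences also came under 2-fold, at 0.61 between DLP and AP and -0.27 between VP and DLP, and that between DLP and AP in MYC stayed past it at -1.22.

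The sequences upstream of the start of SRD5A1, SRD5A2 and HSD11B1 are shown because SRD5A1 was higher and SRD5A2 and HSD11B1 were lower in MYC VP. The 250 bases before the annotated start were read from RefSeq on GRCm38.p6, all on the minus strand: chr13:69611464-69611713 for SRD5A1, chr17:74047861-74048110 for SRD5A2 and chr1:193242361-193242610 for HSD11B1, whose start here lies inside the annotated gene (chr1:193221640-193264045). Capitals mark each CG dinucleotide, of which there are 20, 12 and 6.

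SRD5A1: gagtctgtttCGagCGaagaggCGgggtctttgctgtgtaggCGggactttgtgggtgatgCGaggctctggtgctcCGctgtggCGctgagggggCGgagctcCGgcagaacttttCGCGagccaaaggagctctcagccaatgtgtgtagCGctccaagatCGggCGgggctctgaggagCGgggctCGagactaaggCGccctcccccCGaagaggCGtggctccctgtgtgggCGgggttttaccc

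SRD5A2: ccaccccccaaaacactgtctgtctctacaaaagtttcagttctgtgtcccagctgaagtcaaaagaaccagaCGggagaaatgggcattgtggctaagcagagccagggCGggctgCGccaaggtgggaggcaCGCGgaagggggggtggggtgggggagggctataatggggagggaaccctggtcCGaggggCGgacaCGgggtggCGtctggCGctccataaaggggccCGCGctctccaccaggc

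HSD11B1: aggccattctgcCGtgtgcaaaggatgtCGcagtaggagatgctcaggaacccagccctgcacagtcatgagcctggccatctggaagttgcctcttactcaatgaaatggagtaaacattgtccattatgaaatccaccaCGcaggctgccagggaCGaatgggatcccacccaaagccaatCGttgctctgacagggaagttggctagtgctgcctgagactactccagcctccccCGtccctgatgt

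RefSeq held 9 promoters of 300 bases (250 before to 50 after the start) for 8 members, NR3C1 and HSD11B2 having none in the table used, and ESR1 having 2. Their median GC content was 59.3% and their median number of CG dinucleotides 14, beside 52.7% and 7 over all 32851 promoters of the table. The letters CACGTG, the E-box that MYC with MAX binds and whose reverse complement is itself, occurred in 2 of the 9, and in 7.15% of all promoters. The first lies 72 to 67 bases before the start of ESR2 (chr12:76177296-76177361, minus strand) and the second 212 to 207 bases before that of SRD5A3 (chr5:76140031-76140096, plus strand); both are shown with 30 bases on each side and the E-box in capitals.

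ESR2: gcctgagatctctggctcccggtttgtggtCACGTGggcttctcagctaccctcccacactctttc

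SRD5A3: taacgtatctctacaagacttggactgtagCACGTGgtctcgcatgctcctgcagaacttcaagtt

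On both strands, the core AGAACA of glucocorticoid, mineralocorticoid and progesterone receptor elements occurred in 0 of the 9 and in 19.0% of all promoters, and the core AGGTCA of the estrogen response element in 0 of the 9 and in 16.3%. The spaced full elements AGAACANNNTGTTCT and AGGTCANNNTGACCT, which contain those cores, occurred in 0 of the 9 and in 0.00913% and 0.0213% of all. These are matches of letters in 1 window and say nothing of binding.

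SRD5A1 (chr13:69573449-69611485), the reductase of wide tissue distribution, was at 1.34, 0.835 and 0.343 FPKM in WT AP, DLP and VP. In MYC it was at 2.75, 2.33 and 3.23 FPKM, so that every MYC library lay above every WT library. In MYC the AP overlapped DLP and VP in counting interval and the VP was 1.39-fold above the DLP [1.12 to 1.75], whereas in WT the VP was 3.89-fold below the AP [2.46 to 6.54]. MYC exceeded WT 2.06-fold in the AP [1.51 to 2.79], 2.78-fold in the DLP [2.04 to 3.82] and 9.41-fold in the VP [6.36 to 14.8], where an estimated 27 reads stood against 213. The log2 ratios were 0.68, 0.86 and 1.66. In the VP the difference was as large relative to Krt8 and Krt18, the keratins of luminal epithelium, with a log2 ratio of 1.92, and 2.72 relative to the stromal markers, on which the AP difference fell to 0.038.

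SRD5A2 (chr17:74014891-74047860) was the most abundant reductase in all libraries but MYC DLP and MYC VP. It was at 11.48 FPKM in WT AP, 24.1 in WT DLP and 11.4 in WT VP. In MYC it was at 16.97 FPKM in the AP and at 3.55 and 3.57 in DLP and VP. WT DLP was highest, and MYC DLP and MYC VP were lowest and alike within counting error. MYC was thus 1.48-fold higher in the AP [1.25 to 1.75], 6.80-fold lower in the DLP [5.38 to 8.63] and 3.19-fold lower in the VP [2.54 to 4.04]. In the AP the direction turned relative to the 20 fibroblast and smooth muscle markers, from a log2 ratio of 0.53 to -0.12. The log2 ratio was -2.47 in the DLP and -1.95 relative to these markers. They did not move together in the DLP, with log2 ratios from -1.81 for DPT, -1.65 for PDGFRA and -1.35 for DCN to 1.98 for COL1A1 and 2.03 for COL3A1, and against DPT or PDGFRA alone SRD5A2 would come under 2-fold. In the VP it was -1.44, and on that denominator -0.38 and no longer 2-fold. Between lobes the order changed with genotype: the DLP was 2.10-fold above the AP in WT [1.79 to 2.48] and 4.78-fold below it in MYC [3.77 to 6.09].

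SRD5A3 (chr5:76140273-76155503) is needed to make dolichol, the lipid carrier of protein glycosylation. It was at 3.80, 4.70 and 2.703 FPKM in WT AP, DLP and VP and at 5.40, 5.42 and 3.88 FPKM in MYC. Neighbouring libraries in the order of levels all had overlapping counting intervals. MYC was 1.42-fold higher in the AP [1.11 to 1.83], 1.15-fold in the DLP [0.937 to 1.42] and 1.43-fold in the VP [1.13 to 1.84]. The intervals in AP and VP left out 1, and none of these differences was 2-fold.

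**Figure D4:**
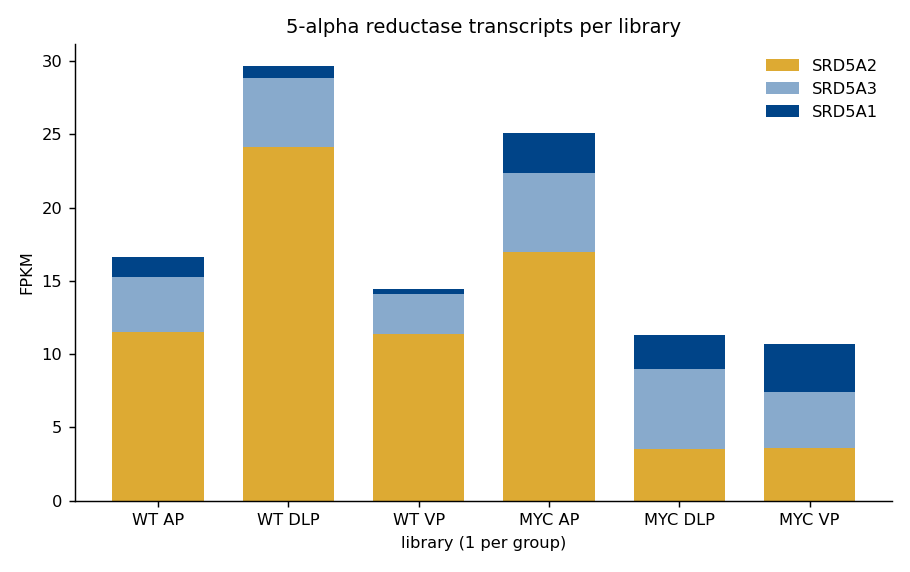
Summed FPKM of SRD5A2, SRD5A3 and SRD5A1 per library (y axis from 0, stacked bars, 1 library per bar). SRD5A2 makes up most of the sum in the WT libraries and MYC AP and about as much as each other reductase in MYC VP, where the shares are 33.4%, 36.3% and 30.3%.

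The makeup of the reductase transcripts differed by library. SRD5A2 made up 69.1%, 81.3% and 78.9% of the summed FPKM in WT AP, DLP and VP, and 67.6%, 31.4% and 33.4% in MYC. SRD5A1 made up 8.04%, 2.81% and 2.38% in WT and 10.9%, 20.6% and 30.3% in MYC. The sum was 16.6, 29.7 and 14.4 FPKM in WT and 25.1, 11.3 and 10.7 FPKM in MYC. The ratio of SRD5A1 to SRD5A2 was 0.116, 0.0346 and 0.0301 in WT and 0.162, 0.655 and 0.906 in MYC, which is 18.9-fold higher in MYC DLP [12.7 to 28.0] and 30.1-fold higher in MYC VP [18.9 to 49.9]. In the AP the ratio was 1.39-fold higher with an interval that included 1 [0.973 to 1.97].

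HSD11B1 was at 12.0, 17.3 and 16.6 FPKM in AP, DLP and VP of WT. The MYC libraries were at 8.67, 6.72 and 6.44 FPKM, each below every WT library. WT DLP and WT VP overlapped in counting interval, as did MYC DLP and MYC VP. MYC was 1.38-fold lower in the AP [1.17 to 1.62], 2.57-fold lower in the DLP [2.19 to 3.04] and 2.57-fold lower in the VP [2.21 to 3.01]. The log2 ratios in DLP and VP were -1.25 and -1.24. Relative to the fibroblast and smooth muscle markers they were -0.73 and -0.18, under 2-fold in both lobes, whereas the AP difference went from -0.42 to -1.07, and relative to Krt8 and Krt18 they were -1.48 and -0.98.

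HSD11B2 (chr8:105518746-105523988) was below 1 FPKM everywhere, at 0.333, 0.168 and 0.588 in WT AP, DLP and VP and at 0.619, 0.735 and 0.725 in MYC. The estimated reads ran from 13 to 51. It was 4.38-fold higher in MYC DLP by FPKM [2.31 to 8.91], while in the VP the interval of the ratio of 1.23 included 1 [0.811 to 1.87]. HSD11B1 exceeded it in all 6 libraries. The ratio of HSD11B2 to HSD11B1 was 0.0279, 0.00969 and 0.0355 in WT and 0.0714, 0.109 and 0.113 in MYC.

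**Figure D5:**
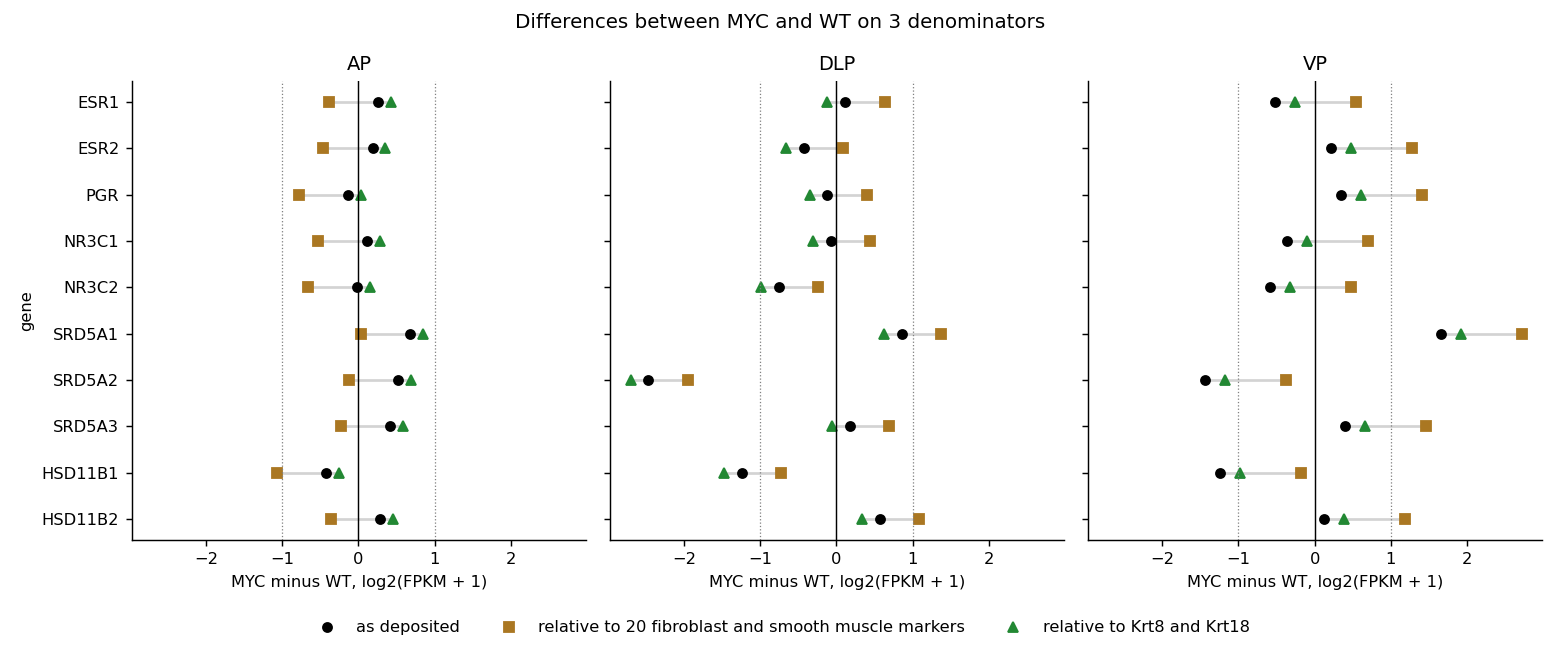
Difference between MYC and WT in log2(FPKM + 1) for each member in AP, DLP and VP (x axis), as deposited (circles), relative to the mean of 20 fibroblast and smooth muscle markers (squares) and relative to Krt8 and Krt18 (triangles), with dotted lines at 2-fold. SRD5A2 in DLP and SRD5A1 in VP stay past 2-fold in the same direction on the 3 denominators plotted, of which the stromal mean in DLP averages markers that went opposite ways, whereas HSD11B1 and SRD5A2 in VP come under 2-fold relative to the stromal markers.

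The mean log2 ratio of the 20 fibroblast and smooth muscle markers was 0.64 in the AP, -0.52 in the DLP and -1.06 in the VP, and that of Krt8 and Krt18 was -0.17, 0.23 and -0.26. Every member shifts by these amounts on the other denominators. In the VP the log2 ratios of ESR1, NR3C1 and NR3C2 were below 0 as deposited, and all 4 receptors compared lay above 0 relative to the stromal markers, at 0.54 for ESR1, 1.28 for ESR2, 0.70 for NR3C1 and 0.48 for NR3C2.

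Genes around the members in the steroid pathway were mostly below the level compared or under 2-fold. Of 17 genes of steroid synthesis 6 were compared, 0 were 2-fold apart in any lobe, and 5 were listed at 0 in all libraries. Over all genes 2.05% were higher and 0.599% lower in the AP, 6.46% and 3.39% in the DLP, and 6.88% and 5.95% in the VP. The count of 0 of 6 is thus near the background. CYP17A1 and CYP11A1, which make steroid precursors in gonad and adrenal, were at most at 0.158 and 0.254 FPKM. Of 20 measured 17-beta dehydrogenases and aldo-keto reductases 7 were compared. AKR1C12 and AKR1C13 were higher in MYC AP (2 of 7, against 2.05% of all genes), at 2.27 against 0.592 FPKM and 5.13 against 1.20 FPKM, and HSD17B11, a dehydrogenase of lipid droplets, was lower in MYC VP, at 5.28 against 14.6 FPKM (1 of 7, against 5.95%). For AKR1C12 and AKR1C13 WT AP was the lowest library, with WT DLP at 4.83 and 5.88 FPKM and WT VP at 9.26 and 10.6 FPKM.

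Of 13 measured genes of steroid clearance and cofactor supply 7 were compared. SULT1E1, the estrogen sulfotransferase, was at 8.58, 20.02 and 10.02 FPKM in WT AP, DLP and VP and at 12.8, 3.76 and 1.34 FPKM in MYC, which is lower in DLP and VP by log2 ratios of -2.14 and -2.24. As with SRD5A2, WT DLP was its highest library, MYC AP came next, and MYC DLP and MYC VP were lowest. SULT1A1, a phenol sulfotransferase, was lower in MYC VP (1.30 against 4.01 FPKM). The list thus had 1 of 7 lower in DLP, against 3.39% of all genes, and 2 of 7 lower in VP, against 5.95%. H6PD, which supplies NADPH to HSD11B1, was at 17.6, 10.01 and 8.60 FPKM in WT and at 13.9, 10.02 and 4.13 FPKM in MYC, under 2-fold on the log2 scale in each lobe. H6PD, CYP17A1 and CYP11A1 are named for their roles and after their values were seen.

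Chaperones and coregulators of the receptors were mostly under 2-fold. Of 14 chaperones 1 was 2-fold higher in MYC AP, against 2.05% of all genes, which was FKBP5 (38.0 against 11.1 FPKM), and 0 were 2-fold apart in DLP or VP. WT AP was the lowest library for FKBP5, which was at 43.8 and 64.7 FPKM in WT DLP and VP and at 32.2 and 44.6 FPKM in MYC. Of 16 coregulators 0 were 2-fold apart in any lobe, with medians of 0.15, 0.06 and 0.03 beside 0.13, 0.03 and 0.04 over all genes compared. Of all genes 2.05% were higher and 0.599% lower in the AP, 6.46% and 3.39% in the DLP, and 6.88% and 5.95% in the VP. Most genes were thus under 2-fold, in these lists as over all genes.

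Genes known to respond to these receptors were counted in both directions. Of 15 compared genes induced by glucocorticoids 3 were 2-fold higher and 0 lower in MYC AP, 2 higher and 1 lower in DLP, and 2 higher and 2 lower in VP. Over all genes compared 2.05% were higher and 0.599% lower in the AP, 6.46% and 3.39% in the DLP, and 6.88% and 5.95% in the VP, so that the counts in DLP and VP are near the background. TSC22D3, the leucine zipper protein GILZ, was at 12.6, 13.3 and 21.3 FPKM in WT AP, DLP and VP and at 48.9, 24.6 and 33.1 FPKM in MYC. CEBPD was lower in MYC DLP and VP (58.7 against 164 FPKM and 20.4 against 62.4 FPKM), and ANGPTL4 was higher (27.2 against 11.1 FPKM and 8.83 against 3.46 FPKM). FKBP5 and several others of this list are also induced by androgens.

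Of 6 compared sodium transport genes linked to the mineralocorticoid receptor 2 were lower in MYC VP, where 5.95% of all genes were. They were SCNN1A, a subunit of the epithelial sodium channel (5.08 against 12.5 FPKM), and ATP1B1, a subunit of the sodium pump (58.5 against 157 FPKM). In AP and DLP 0 of this list were 2-fold apart, and 6 and 5 of the 6 lay above 0 on the log2 scale. The medians there were 0.48 and 0.40, beside 0.13 and 0.03 over all genes compared. Of 8 compared estrogen-responsive genes 1 was 2-fold higher in MYC AP, 3 were higher in MYC DLP and 1 was lower in MYC VP, against 2.05%, 6.46% and 5.95% of all genes. LTF, lactoferrin, was at 2.22 against 0.0308 FPKM in the AP. It was at 49.8 against 0.334 FPKM in the DLP, AREG at 28.0 against 9.45 FPKM and C3 at 73.3 against 35.0 FPKM; in the same library 10 of 10 hematopoietic markers were 2-fold higher. IGF1 was lower in MYC VP, at 1.69 against 5.88 FPKM.

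As a description of pattern, the 3 genes with the highest Pearson correlation of log2(FPKM + 1) to each compared member were taken from 3901 varying genes, over 6 libraries that share 2 animals. For ESR1 they were SDK1, SGK3 and EEPD1, for ESR2 MAPK9, SLC35F5 and SCD1, for NR3C1 LIFR, IFFO1 and RBMS3, and for NR3C2 RAB39B, CATSPERE2 and USP2. For SRD5A1 they were PRCP, SLFN9 and FABP5, for SRD5A2 TMEM97, ANGPTL7 and FGF10, for SRD5A3 ETFBKMT, RNF125 and CLIC3, and for HSD11B1 DNAJC3, APOD and CRELD2. The coefficients ran from 0.948 for CLIC3 to 0.999 for LIFR. Each was chosen by its correlation, so a pattern shared with the member was fixed by that choice. FGF10, a growth factor made by prostate mesenchyme, was at 2.04, 3.07 and 2.07 FPKM in WT AP, DLP and VP and at 3.35, 0.671 and 0.356 FPKM in MYC. MYC DLP and MYC VP were lowest for it, for TMEM97 and for ANGPTL7, as for SRD5A2. APOD, DNAJC3 and CRELD2 were like HSD11B1 lower in every MYC library than in every WT library. DNAJC3 and CRELD2 are proteins of the endoplasmic reticulum, and CRELD2 was at 224, 290 and 300 FPKM in WT and 94.2, 71.0 and 53.2 FPKM in MYC.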

How the data were processed

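Bulk polyadenylated RNA of 6 libraries (3 lobes of 1 WT and 1 MYC mouse) was sequenced single-end. The authors aligned reads with STAR and quantified genes with Cufflinks on mm10, per the submitters' processing notes; the gene annotation and the use of strand in counting are not given in the sources used here. The deposited table holds FPKM, although it is called a table of counts, so no count model was run. Groups came from sample titles. The members and the lists of pathway and marker genes were chosen with earlier results of these data known. All members, the 3 most similar genes of each, and pathway genes 2-fold apart between genotypes were named. Some genes of this rule are not reported here. Depth was recovered from the steps of low FPKM values, and reads per gene were estimated from FPKM, depth and mean GENCODE M1 transcript length less 200 bases, which gave exact 95% binomial (Clopper-Pearson) intervals of counting error. Ratios between 2 genes used the exact conditional interval of an odds ratio. Lengths were found for 82.1% of symbols. Coordinates and promoters are RefSeq's on GRCm38.p6. Lobes were compared over both animals with limma's moderated test on log2(FPKM + 1), lobe and animal as terms and Benjamini-Hochberg adjustment over all 12361 genes; the animal that pairs the lobes comes from the sample titles. Alternatives were other scalings, a pseudocount of 0.1, other filters and thresholds, and ratios to marker genes. Calculations were run in Python 3.11.15 (scipy 1.17.1, numpy 2.4.6, pandas 2.3.3; plots by matplotlib 3.10.9) and R 4.3.3 (limma 3.58.1), and the code was tested on simulated data.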

Additional observations from a re-analysis of the deposited data

How the results depend on the processing

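Of 16 member differences that were 2-fold or more, none changed direction under medians of ratios, equal sums or a pseudocount of 0.1, and 14, 14 and 16 of them stayed past 2-fold. Relative to the fibroblast and smooth muscle markers 6 stayed past 2-fold, and 3 changed sign, all between VP and AP in MYC: ESR1 (0.21), NR3C1 (0.87) and SRD5A2 (0.071). Relative to Krt8 and Krt18, tried for genotype only, 4 of 5 stayed. The count of members apart between MYC and WT in DLP was 2, and 4 with a pseudocount of 0.1, the added ones being NR3C2 and SRD5A1. The background rose as well, from 799 higher and 419 lower of 12361 genes to 1039 and 632. A 4-fold threshold left 1 in DLP and 0 in VP, and 0 in each of the 6 comparisons of lobes. Of all genes it left 196 higher and 78 lower in DLP and 148 and 114 in VP. Between DLP and AP in WT the count of 1 became 0 under medians of ratios and under equal sums, and 2 with a pseudocount of 0.1. Of all genes that pseudocount put 736 higher and 299 lower there, beside 476 and 162 with a pseudocount of 1. Between VP and DLP in WT it put 449 higher and 1379 lower, beside 325 and 778. The count of members between these lobes became 4 with it, and 0 under equal sums (354 and 675 of all genes). Under medians of ratios the count stayed at 1, but with ESR2 (1.05) in place of SRD5A2 (-0.82). With a mean of at least 10 FPKM it became 0 for VP against AP in WT, 1 for VP against AP in MYC and 0 for VP against DLP in MYC, since fewer members were compared. The log2 fold of the ratio of SRD5A1 to SRD5A2 was 4.24 in DLP and 4.91 in VP, and 3.32 and 3.10 with a pseudocount of 1, an alternative chosen after seeing the data. Elsewhere the cause was not tested. Leaving out a library was not possible with 1 per group. In the limma fit of lobes over both animals, added after seeing the data with the animal as replicate block, 3 members differed between VP and AP, and 2 without the block, where NR3C1 had a limma adjusted p of 0.0503, with 2056 and 980 of all genes called; 0 differed between the other lobes with or without it. Between VP and DLP the genes called were 110 with the block, 75 without it, 166 with a pseudocount of 0.1 and 9 under medians of ratios, and between DLP and AP they were 6, 6, 2 and 6. Genotypes could not be paired, since each is 1 animal. Depth limits PGR, HSD11B2 and ESR2 in the AP most, with as few as 10 estimated reads, and with the shortest transcript length in place of the mean the intervals for NR3C2 in DLP and VP, NR3C1 in VP, SRD5A3 in AP and VP and HSD11B1 in AP included 1, which was also tried after seeing the data.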
